A study of Mus musculus with 2 samples.

Results

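The array spots named for keratins, cell junction proteins and other epithelial proteins were compared between mouse morulae that had received LIF-siRNA and morulae that had received scrambled siRNA. Members were taken by the start of the gene name on the array. The name had to begin with the word for a keratin, a gap or tight junction protein, a plakin, a microvillar protein, an epithelial surface protein, a small proline-rich protein, an annexin or an S100 protein, among other such starts. There were 64 members among 8735 gene spots, each with a gene name of its own and 1 spot. Of the name starts, 13 had no spot. These included occludin, the desmosomal proteins whose names begin with desmo, plakophilins, cingulin, par- proteins and disabled homolog 2.

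Both groups were whole embryos of strain B6CBF1, aged 4 d and at the morula stage. Zygotes with visible pronuclei received 1 pl of siRNA (1.0 fmol according to the labels, which differs from the amount in the study's methods, so that the dose is uncertain) in the cytoplasm, either against leukemia inhibitory factor (LIF) or with a scrambled sequence, and were then cultured. Pooled RNA of LIF-siRNA embryos was labeled with Cy5 and that of scrambled-siRNA embryos with Cy3, and both were hybridized together on each of 2 arrays. The dyes were not swapped, so dye and group cannot be told apart. A description among the labels speaks of untreated stem cells and of more replicates, which differs from the sample titles and RNA sources used here. The labels do not tell if RNA of different embryos was used on the arrays, so the spread between them may be technical.

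In the morula, the blastomeres flatten against each other and the outer cells acquire an apical and a basal side. These outer cells go on to form the trophectoderm, the first epithelium of the embryo, which is sealed by tight junctions, coupled by gap junctions and filled with keratin filaments. Keratin 8 with its partner keratin 18, the adhesion molecule EpCAM and the membrane linker ezrin are known from this layer, while most other keratins, the small proline-rich proteins and many S100 proteins are known from skin and other stratified epithelia.

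Keratin 8, EpCAM, ezrin and the connexin Gjb5 had lower signals in LIF-siRNA embryos on both arrays, whereas claudins 4 and 6, which are also known from early epithelium, had opposite signs on the arrays. The mean ratio of LIF-siRNA to scrambled siRNA was 0.259 for keratin 8, 0.395 for EpCAM, 0.41 for ezrin and 0.202 for Gjb5 (n = 2 arrays each). S100a1 and annexin A6 were also below a ratio of 0.5 on both arrays. Keratin 10, periplakin and annexin A8, known from stratified or keratinizing epithelia, had mean ratios of 2.31, 2.1 and 2.02. Keratins 16 and 15, also known from such epithelia, did not share this direction, since keratin 16 was slightly lower on both arrays and keratin 15 had opposite signs. The cornified envelope proteins Sprr1a and Sprr2a were lower on both arrays too, with mean log2 ratios of -0.84 and -0.30, from dim signals that moved to -0.14 and 0.04 with another background correction (normexp) and loess. The scaffold Tjp1 of the tight junction had a mean ratio of 1.01, and keratin 19 had one of 1.03. No member passed limma's test after adjustment over all probes, and the lowest adjusted p among members was 0.058.

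The 5' flanks of the 4 genes just named as lower are shown because these members shared a direction, with 250 bases before the annotated start taken from the RefSeq promoter table of GRCm38.p6 and written 5' to 3' on the strand of the gene. Keratin 8 lies at chr15:102004343-102004592 on the minus strand, EpCAM at chr17:87635729-87635978 on the plus strand, ezrin at chr17:6782781-6783030 on the minus strand and Gjb5 at chr4:127358165-127358414 on the minus strand. Capitals mark matches to any of 5 motifs searched on both strands.
Krt8: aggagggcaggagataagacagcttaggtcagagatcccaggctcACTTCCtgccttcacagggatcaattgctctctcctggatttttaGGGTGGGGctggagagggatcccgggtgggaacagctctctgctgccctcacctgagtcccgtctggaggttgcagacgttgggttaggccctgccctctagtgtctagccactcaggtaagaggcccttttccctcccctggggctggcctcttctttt
Epcam: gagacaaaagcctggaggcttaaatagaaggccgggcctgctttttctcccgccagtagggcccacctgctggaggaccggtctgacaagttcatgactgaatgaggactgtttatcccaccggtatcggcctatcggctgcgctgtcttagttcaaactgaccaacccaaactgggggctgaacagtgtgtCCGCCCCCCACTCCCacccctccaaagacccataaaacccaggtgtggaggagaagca
Ezr: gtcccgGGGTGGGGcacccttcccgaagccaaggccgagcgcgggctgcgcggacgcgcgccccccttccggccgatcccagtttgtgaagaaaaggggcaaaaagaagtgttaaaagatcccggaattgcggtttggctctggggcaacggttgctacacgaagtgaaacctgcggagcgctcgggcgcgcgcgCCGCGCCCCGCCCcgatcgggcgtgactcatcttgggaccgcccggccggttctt
Gjb5: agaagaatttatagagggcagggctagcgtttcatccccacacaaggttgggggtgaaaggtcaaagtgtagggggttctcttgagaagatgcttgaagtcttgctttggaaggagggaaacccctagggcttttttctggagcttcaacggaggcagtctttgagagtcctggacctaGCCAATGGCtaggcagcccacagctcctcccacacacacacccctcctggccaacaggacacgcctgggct

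The motifs were TTCNNNGAA for STAT factors, GCCNNNGGC for AP-2 factors, GGAATG for TEAD factors, CCNCNCCC for Kruppel-like factors and GGAAGT for ETS factors such as Elf3. Among all 32851 windows of the same length in the table, 7.02% held the STAT letters, 13.7% those for AP-2, 12.6% those for TEAD, 45.9% those for Kruppel-like factors and 19.7% those for ETS. The keratin 8 window held a Kruppel-like match 160 bases and an ETS match 205 bases before the start. EpCAM held 2 Kruppel-like matches, at 58 and 51 bases, which share a base, and ezrin held 3, at 244, 55 and 50 bases, of which the last pair overlap. Gjb5 held an AP-2 match at 71 bases. S100a1 also had a window in the table, with an ETS match at 137 bases, and annexin A6 had no entry. The STAT and TEAD letters were in none of these 5 windows. The windows of keratin 8, EpCAM, ezrin and Gjb5 had 58%, 56.4%, 67.2% and 54.4% G and C, against a median of 52.4% over all windows. These matches are descriptions of letters in a window.

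Each value below is the processed signal of a spot, its brightness after background subtraction and dye normalization, or the log2 of the ratio of LIF-siRNA (Cy5) to scrambled siRNA (Cy3). A log2 ratio below 0 is a lower signal in LIF-siRNA embryos. Each probe has its own brightness, so signals are compared between channels and not between genes. Where the signals of the groups are said not to overlap, channels of different arrays are compared as well, without the pairing within an array. The share of all probes without overlap was not counted, so lack of overlap is a description and not a test. Since whole embryos were used, fewer cells of a type and less RNA per cell cannot be told apart. The median signal over local background lay between 4.83 and 6.60 in the 4 channels, no gene spot was saturated, and 0 members were marked as outliers. Of the 64 members, 55 were bright enough in at least 1 channel of each array to be tested, as were 8079 of all gene spots. Over all 8079 probes the median SD between the arrays was 0.249 on the log2 scale, and over the members tested it was 0.281. The 9 members too dim to test were keratins 4 and 33b, keratin-associated protein 9-1, Gja4, claudins 3 and 8, annexin A10, S100a4 and S100a9.

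No spot was named for LIF, so the targeted transcript was not checked on the arrays. Embryo markers were read on them. The pluripotency factors Pou5f1 and Zfp42 were bright in every channel (7313 to 8862 and 21414 to 31231), with mean log2 ratios of -0.11 and 0.35, whereas Sox2 (mean -2.35) and Utf1 (mean -0.94) were lower on both arrays. The trophectoderm factor eomesodermin had log2 ratios of 0.28 and 0.00. Of 3 cumulus cell genes, pentaxin (0.67 and 1.68) and versican (0.34 and 0.33) were higher on both arrays and Tnfip6 was not (-0.63 and 0.23). The oocyte factor Bmp15 (0.35 and 0.77) and the oviductal glycoprotein (0.74 and 1.11) were higher too. Of 5 hemoglobin spots, hemoglobin X was bright and lower (-1.30 and -1.28), while the other spots stayed at or below 133 in every channel. The part of these cell types in the results for the members was not tested.

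**Figure D1:**
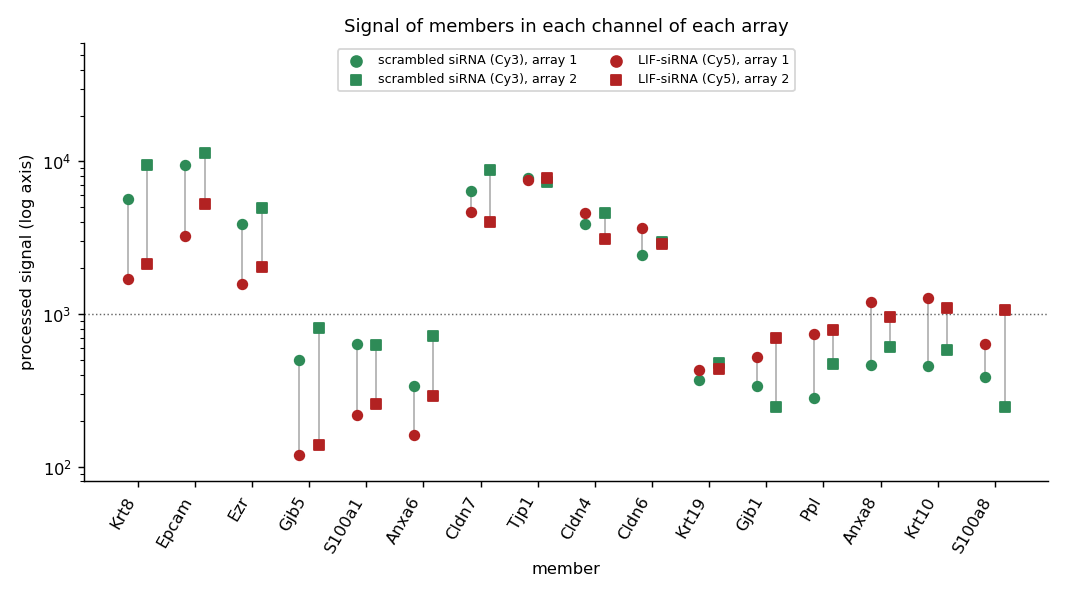
Processed signal (log axis) of 16 members in the scrambled-siRNA channel (Cy3, green) and the LIF-siRNA channel (Cy5, red) of array 1 (circles) and array 2 (squares), with a line joining the channels of an array and a dotted line at 1000. Krt8, Epcam, Ezr, Gjb5, S100a1 and Anxa6 lie lower in LIF-siRNA on both arrays, Tjp1 is level at 7359 to 7811, and Ppl, Anxa8, Krt10 and S100a8 lie higher in LIF-siRNA.

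Keratins are the intermediate filament proteins of epithelia, built as pairs of an acidic and a basic chain. Keratin 8, the basic chain of simple epithelium, had signals of 1708 and 2131 in LIF-siRNA and 5679 and 9530 in scrambled siRNA on arrays 1 and 2. The LIF-siRNA signal was the lower on each array, and the ranges of the groups did not overlap. The log2 ratios were -1.73 and -2.16, with a mean of -1.95 (SE 0.23, 95% interval -2.54 to -1.35, n = 2 arrays) and a limma adjusted p of 0.058. No spot was named for keratin 18, its acidic partner, whose gene is the neighbour of keratin 8 in the RefSeq table. Keratin 19, another acidic chain of simple epithelium, had signals of 429 and 435 in LIF-siRNA against 368 and 481. The signs differed between the arrays (0.22 and -0.14), the mean was 0.04, and the 95% interval of -0.54 to 0.62 lay within 2-fold either way. That interval rests on 2 arrays whose spread may be technical. It therefore does not exclude such a difference between embryos.

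Keratin 10, the acidic chain of differentiating epidermis, had signals of 1278 and 1102 in LIF-siRNA and 454 and 583 in scrambled siRNA. Its LIF-siRNA signals were higher on both arrays and did not overlap the others. The log2 ratios were 1.49 and 0.92, with a mean of 1.21 (SE 0.24, 95% interval 0.57 to 1.84) and a limma adjusted p of 0.0738. The ratio on array 2 was under 2, so that keratin 10 passed a 2-fold threshold on the mean and not on each array. Keratin 17, a chain of hair follicles and wounds, gave 293 and 323 against 214 and 205 (log2 ratios of 0.45 and 0.65). The inner root sheath keratin 71 gave 2109 and 2211 against 1512 and 1680 (0.48 and 0.40). Both were modestly higher on each array, with mean log2 ratios of 0.55 and 0.44. The corneal keratin 12 (0.34 and 0.09) was slightly higher on both arrays, and keratin 16 (-0.28 and -0.10), which is known from wounded skin, slightly lower.

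Among the remaining keratins the arrays differed widely. Keratin 15, of basal cells, had log2 ratios of -0.28 and 1.85, and keratin 6a ones of -0.82 and 0.96, all from signals of 206 or less. The scrambled signal of keratin 6a on array 2 (13.9) was not well above background, so its ratio of 0.96 rests on a dim channel. Keratin 13 of mucosal epithelium had ratios of 1.48 and 0.25 on the log2 scale. Its scrambled signals of 11.6 and 33.4 were not well above background, so the difference is given only as a bound, at least 1.32-fold higher in LIF-siRNA. In such bounds the dim channel was set to the lowest signal that was well above background on each array, or to the signal of the probe itself where that was higher. The bounds hold for the processed signals as deposited. With normexp background correction, which adds an offset of 50 to each channel, and loess, the mean log2 ratio of keratin 13 was 0.10, a 1.07-fold difference and under its bound. Over the 10 keratins tested, 5 were higher on both arrays, 2 were lower on both and 3 had opposite signs. The median log2 ratio was 0.33 (array 1 alone 0.28, array 2 alone 0.33), against -0.004 over all probes. Its size depended on the processing, with 0.12 under normexp and loess, 0.14 when the dim keratins were included and 0.49 with background-subtracted signals without lowess. Of 3 keratin-associated proteins tested, which crosslink keratins in hair, 2 were higher on both arrays, and the mean log2 ratios ran from 0.09 for keratin-associated protein 5-4 to 0.44 for keratin associated protein 12-4. None of these 3 had an unadjusted limma p under 0.05.

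Gap junction proteins, or connexins, form channels between neighbouring cells. Gjb5, a connexin known from trophoblast and skin, had signals of 118 and 139 in LIF-siRNA and 499 and 808 in scrambled siRNA. Both LIF-siRNA signals were far below both others, and still brighter than 98.0% and 98.2% of the blank spots in that channel. The log2 ratios of -2.07 and -2.54 gave the lowest mean among the members on the deposited ratios, -2.31 (SE 0.23, 95% interval -2.91 to -1.70, limma adjusted p = 0.058). With normexp and loess the mean of Gjb5 was -1.69, and that of keratin 8 was lower at -1.91. The mean signal of Gjb5 stayed under 1000 in both channels, so that the 2-fold criteria with a signal threshold, as applied here to array means, left it out. The paper itself names Gjb5 among its down-regulated genes and reports that real-time PCR bore out its array findings.

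Of 6 connexins tested, 3 were higher and 3 were lower on both arrays. Gjb1, the connexin of liver and myelin, was among the higher and had signals of 520 and 702 in LIF-siRNA and 340 and 247 in scrambled siRNA. The groups did not overlap, and the log2 ratios of 0.61 and 1.51 had a mean of 1.06 (95% interval 0.30 to 1.82, limma adjusted p = 0.101). Gjb6, a connexin of skin and inner ear, was dim in the scrambled channel on each array (26.5 or less), which gives a bound of at least 1.38-fold higher in LIF-siRNA on the processed signals. With normexp and loess its mean log2 ratio was 0.18 (1.13-fold), under that bound. Its gene neighbour Gjb2, with related functions, had log2 ratios of only 0.07 and 0.21 and a 95% interval of -0.40 to 0.68. Over these 6 the median log2 ratio was -0.14, with -0.005 on array 1 and -0.28 on array 2, and it turned to 0.012 with background-subtracted signals without lowess.

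Tight junctions close the space between outer cells, with claudins as the strands and the Tjp proteins as scaffolds beneath them. Tjp1 had signals of 7568 and 7743 in LIF-siRNA and 7811 and 7359 in scrambled siRNA. The groups overlapped, and the mean log2 ratio was 0.01 (95% interval -0.53 to 0.56). Tjp3 had signals of 138 and 58.3 against 150 and 400, hence log2 ratios of -0.13 and -2.78. Its value rested on array 2, and its 95% interval ran from -3.12 to 0.22.

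Among the claudins, claudin 7 had signals of 4632 and 4032 in LIF-siRNA and 6425 and 8814 in scrambled siRNA. It was lower on each array (-0.47 and -1.13), with a mean of -0.80 (95% interval -1.46 to -0.14, limma adjusted p = 0.121). Claudin 4, a strand protein of early epithelia, gave 4575 and 3109 against 3896 and 4596, and claudin 6, known from embryonic epithelium, gave 3637 and 2889 against 2445 and 2965. For both, the arrays had opposite signs (0.23 and -0.56 for claudin 4, 0.57 and -0.04 for claudin 6). Claudin 5, of blood vessel walls, was higher on both arrays (0.27 and 0.55), and claudin 1 of skin stood at -0.10 and 0.19, each from signals under 90. Over the 8 tight junction members tested, 1 was higher on both arrays, 3 were lower on both and 4 had opposite signs. The median log2 ratio was -0.08, with -0.07 on array 1 and -0.30 on array 2, and it turned to 0.03 when the members too dim to test were included.

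EpCAM, named on the array as tumor-associated calcium signal transducer 1, joins epithelial cells by homophilic adhesion. Its signals were 3237 and 5253 in LIF-siRNA and 9550 and 11412 in scrambled siRNA. The groups did not overlap, with log2 ratios of -1.56 and -1.12 and a mean of -1.34 (SE 0.23, 95% interval -1.94 to -0.74, limma adjusted p = 0.0635). Mpzl2, an adhesion protein named epithelial V-like antigen, was lower by nearly the same amount on both arrays (-0.73 and -0.81), and Emp3 stood close to 0 (0.11 and 0.08). The median of the 4 epithelial surface members was -0.34, with -0.31 on array 1 and -0.49 on array 2.

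Ezrin, which the array names villin 2, links actin to the apical membrane and marks the outer face of polarized blastomeres. Its signals were 1580 and 2043 in LIF-siRNA and 3885 and 4952 in scrambled siRNA. The LIF-siRNA signals were lower without overlap, and the log2 ratios of -1.30 and -1.28 were almost the same (mean -1.29, SE 0.21, 95% interval -1.82 to -0.75, limma adjusted p = 0.0607). Its relative radixin (-0.43 and -0.03) was lower on both arrays, by little on array 2. Villin, the actin bundler of microvilli, was higher on both (0.26 and 0.43), from signals of 40.1 to 54.7. The polarity scaffolds Dlg1 (0.92 and 0.13) and Dlg3 (0.29 and 0.56) were bright, with signals of 776 to 3789, and were higher on both arrays.

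Periplakin, a plakin of the desmosome and the cornified envelope, had signals of 743 and 791 in LIF-siRNA and 284 and 468 in scrambled siRNA. The groups did not overlap, and the log2 ratios were 1.39 and 0.76 (mean 1.07, 95% interval 0.42 to 1.73, limma adjusted p = 0.0873). Junction plakoglobin, shared by desmosomes and adherens junctions, gave 288 and 304 against 330 and 286, with log2 ratios of -0.19 and 0.09. Plectin, which ties keratin filaments to other structures, was dim and differed between the arrays (0.08 and 1.11). The cornified envelope proteins Sprr1a (-0.84 and -0.83) and Sprr2a (-0.46 and -0.15) were lower on both arrays. Sprr1a was not well above background in the LIF-siRNA channel, so its difference is a bound on the processed signals, at least 1.51-fold higher in scrambled siRNA. With normexp and loess the mean log2 ratio of Sprr1a was -0.14 (1.10-fold), under that bound, and that of Sprr2a turned to 0.04. Sprr2a was well above background in the LIF-siRNA channel on 1 array, and it has near-identical gene copies, which the spot cannot be taken to separate.

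Annexins bind membrane lipids when calcium is present. Annexin A6, an organizer of membrane and actin, had signals of 162 and 289 in LIF-siRNA and 335 and 723 in scrambled siRNA. It was lower on each array (-1.05 and -1.32), with a mean of -1.19 (95% interval -1.75 to -0.63, limma adjusted p = 0.0662). Annexin A8, known from stratified epithelium, had signals of 1206 and 960 in LIF-siRNA and 466 and 608 in scrambled siRNA. It was higher on each array (1.37 and 0.66), with a mean of 1.02 (95% interval 0.33 to 1.70, limma adjusted p = 0.0949). Over the 9 annexins tested, 3 were higher on both arrays, 2 were lower on both and 4 had opposite signs. The median log2 ratio was -0.004, with -0.01 on array 1 and 0.05 on array 2. The bright annexins A2, A4 and A7 had mean log2 ratios of -0.09, 0.25 and 0.19.

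S100 proteins are small calcium sensors, of which many lie together with genes of the epidermis. S100a1, better known from muscle, had signals of 219 and 256 in LIF-siRNA and 634 and 631 in scrambled siRNA. These groups did not overlap, with log2 ratios of -1.53 and -1.30 and a mean of -1.42 (95% interval -1.97 to -0.87, limma adjusted p = 0.0607). S100a8, a protein of myeloid cells and inflamed skin, had signals of 637 and 1064 in LIF-siRNA and 389 and 246 in scrambled siRNA. It was higher on both arrays by unequal amounts (0.71 and 2.11), with a mean of 1.41 (95% interval 0.42 to 2.40, limma adjusted p = 0.0998). Its partner S100a9 was too dim to test. S100b, a glial protein, had measured log2 ratios of 1.42 and 1.16. Its scrambled signals of 13.6 and 15.8 were not well above background, which leaves a bound of at least 1.42-fold higher in LIF-siRNA on the processed signals. With normexp and loess its mean log2 ratio was 0.36 (1.28-fold), under that bound. Over the 5 S100 members tested, 3 were higher and 1 was lower on both arrays, and the median log2 ratio was 0.38, with 0.20 on array 1 and 0.90 on array 2. It was 0.12 when the dim members were included.

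**Figure D2:**
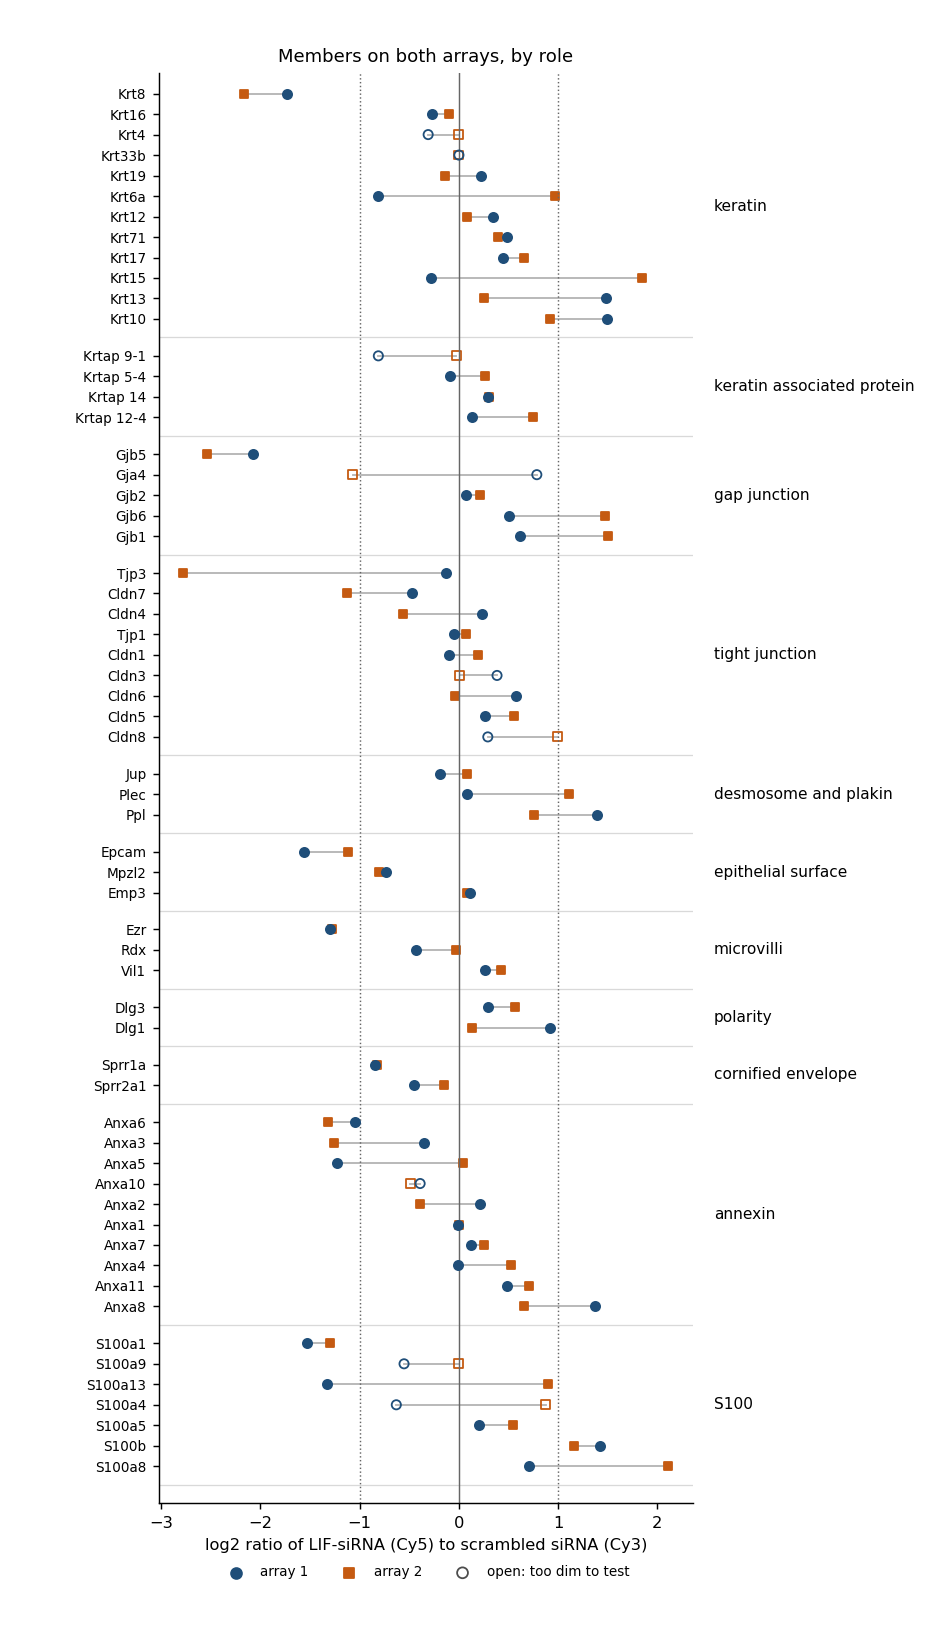
Log2 ratio of LIF-siRNA to scrambled siRNA on array 1 (circles) and array 2 (squares) for 60 members by role, open symbols marking the 9 members too dim to test and dotted lines a ratio of 2 or 0.5. Gjb5, Krt8, Epcam, Ezr, Anxa6 and S100a1 lie beyond the lower line on both arrays, and S100b lies beyond the upper line on both, with a scrambled channel not well above background.

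Counted over all members, ratios under 0.5 on both arrays were found for 6 of 55 (10.9%), against 3.03% of all probes tested. These were the 6 members of the opening account, from Gjb5 to annexin A6. A ratio over 2 on both arrays was found for 1 of 55 (1.82%), against 2.78% of all probes. This was S100b, whose scrambled channel was not well above background, so that its ratio is bounded only at 1.42-fold on the processed signals and was 1.28-fold with normexp and loess. By sign alone, 23 members (41.8%) were higher on both arrays, 17 (30.9%) were lower on both and 15 (27.3%) had opposite signs. Over all probes these shares were 36.7%, 36.8% and 26.5%. The median log2 ratio was 0.09 over the members (0.04 under normexp and loess, 0.06 with the dim members and 0.13 with background-subtracted signals) and -0.004 over all probes. By sign and median, then, the members lay near all probes. Array 1 alone had 27 members lower and 28 higher in LIF-siRNA, and array 2 alone 22 lower and 33 higher.

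Criteria after those of the study's methods were applied here to the means of the arrays, a ratio over 2 or under 0.5 and a signal over 1000 in either channel. There were 17 members with that signal. Of these, 3 were down-expression members (17.6%), keratin 8, EpCAM and ezrin, against 5.42% of the 3527 probes with that signal. There were 2 up-expression members (11.8%), keratin 10 and annexin A8, against 5.33%. Of these 5 the down-expression members were past the threshold on each array. The up-expression members were not past it on array 2, where their log2 ratios were 0.92 and 0.66, so that 0 were counted on that array alone. Without the signal threshold 6 of 64 members had a mean ratio over 2 and 7 had one under 0.5, against 6.55% and 5.13% of all probes. With a flag for signals well above background in place of that threshold these were 6 and 7 of 55, against 6.96% and 5.27%. Among the 17 bright members, 6 were higher on both arrays, 6 were lower on both and 5 had opposite signs.

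In limma's test on the 2 arrays, 0 of 55 members had an adjusted p under 0.05, as had 0% of all probes. The unadjusted limma p was under 0.05 for 19 members (34.5%), 9 higher and 10 lower, against 30.7% of all probes. The methods' t-test, run on these log ratios, put 0 members under 0.05 after adjustment and 4 of 55 before it, against 10.7% of all probes. The calls depended on the processing, and members reached an adjusted p under 0.05 with 5 other settings. With normexp background correction and loess these were Ezr, Gjb5 and Krt8, and with both channels required above background S100a1 as well, all lower. These were 3 of 55 and 4 of 46 members, against 1.96% and 3.09% of all probes in those fits. An intensity trend in the variance model called 12 of 55 members, 7 lower and 5 higher, against 14% of all probes. A test of the bright probes alone called 5 of 17, 3 lower and 2 higher, against 18.7%. Background-subtracted signals without lowess called 18 of 54, 8 lower and 10 higher, against 17.7%, in a fit where limma gave every probe the same variance. Krt8 was called under each of these 5 settings, with mean log2 ratios between -2.09 and -1.91. The fits that changed only the filter or the variance model took the same deposited ratios. Over the settings in which limma estimated a variance per probe, the limma adjusted p of Krt8 was between 0.00444 and 0.157. It was 8.07e-08 in the fit with the same variance for every probe, and 0.463 in the methods' t-test. Gjb5 was called under each of them but the bright probes alone, which it did not enter.

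**Figure D3:**
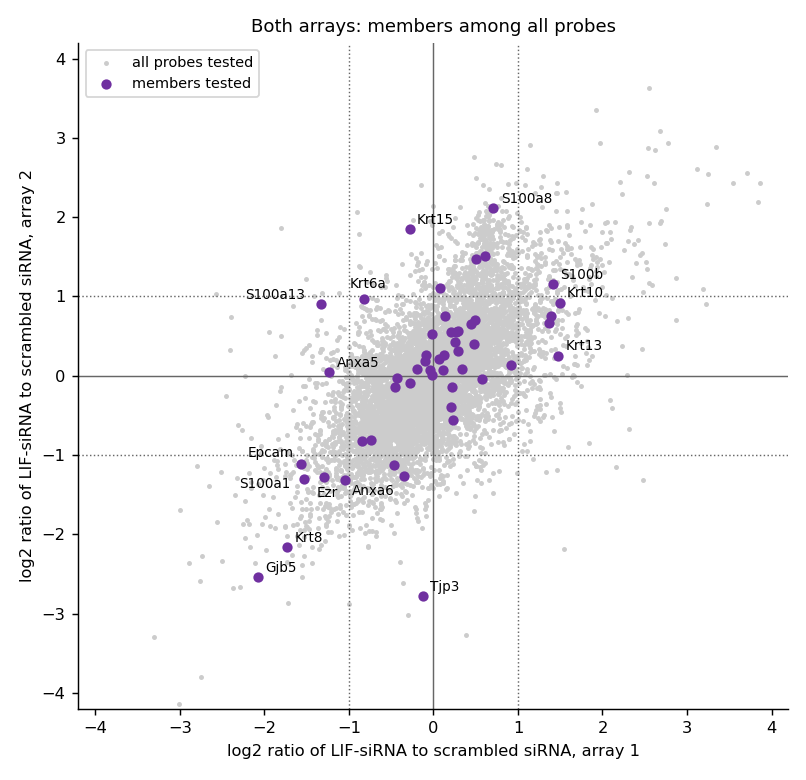
Log2 ratio of LIF-siRNA to scrambled siRNA on array 1 (x axis) against array 2 (y axis) for 51 members tested (purple) and all 8079 probes tested (gray), dotted lines marking a ratio of 2 or 0.5. Gjb5, Krt8, Epcam, S100a1, Ezr and Anxa6 lie in the lower left corner, whereas Tjp3, Krt15, Krt6a, S100a13 and Anxa5 lie off the diagonal, with different values on the arrays.

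Other genes of epithelial junctions, polarity, cavity formation and trophectoderm control were read from a list of names outside the rule. It had 39 spots, of which 35 were tested. Over these, 16 were lower on both arrays, 10 were higher on both and 9 had opposite signs, against 36.8%, 36.7% and 26.5% of all probes. The median log2 ratio was -0.15 (array 1 alone -0.19, array 2 alone -0.05), and it was -0.04 when the dim spots were included. Ratios under 0.5 on both arrays were found for 3 of 35, against 3.03% of all probes, and ratios over 2 for 0. The unadjusted limma p was under 0.05 for 12 of the 35, 6 in each direction, against 30.7% of all probes, and no adjusted p was under 0.05.

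The lowest of the list was E74-like factor 3, an ETS factor of epithelial differentiation, with signals of 1077 and 1465 in LIF-siRNA and 4844 and 6569.9 in scrambled siRNA. The arrays gave the same log2 ratio of -2.17 (limma adjusted p = 0.058). Kruppel-like factor 5, which acts in trophectoderm and pluripotent cells, had signals of 3323 and 2313 in LIF-siRNA and 6659.7 and 8590.3 in scrambled siRNA. It was lower by unequal amounts, with a mean of -1.45 (limma adjusted p = 0.073). Integrin beta 4, the hemidesmosomal receptor that plectin binds, was lower on both arrays (-1.38 and -1.22). The highest mean was that of desmin, the intermediate filament of muscle, with log2 ratios of 2.17 and 0.69.

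By role, the 3 polarity genes of the list, protein kinase C zeta, Cdc42 and a lethal giant larvae homolog, were lower on both arrays, with mean log2 ratios from -0.998 to -0.37. Dlg1 and Dlg3, the polarity scaffolds among the members, were higher on both, as given above. Of 8 adherens junction spots tested, 5 were lower and 2 higher on both arrays, and the mean log2 ratios ran from -0.69 to 1.06. The 2 higher were cadherin 1 (0.69 and 0.26) and actinin alpha 3 (0.84 and 1.29). Cadherin 1 was bright, with signals of 8278 and 7505 in LIF-siRNA and 5143 and 6267 in scrambled siRNA. One of the 8 spots is an actinin-binding LIM protein rather than an actinin. Of 10 trophectoderm factors, 6 were lower on both arrays and 3 were higher on both, with a median of -0.45 that differed between the arrays (-0.11 and -0.39). The 3 higher were AP-2 gamma (0.50 and 0.68), E74-like factor 5 (0.32 and 1.47) and Gata2 (0.645 and 0.352). AP-2 gamma was bright, with signals of 14410 and 14076 in LIF-siRNA and 10182 and 8782 in scrambled siRNA. Of 7 other intermediate filament genes, 3 were higher on both arrays and 0 were lower on both, whereas 4 had opposite signs.

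**Figure D4:**
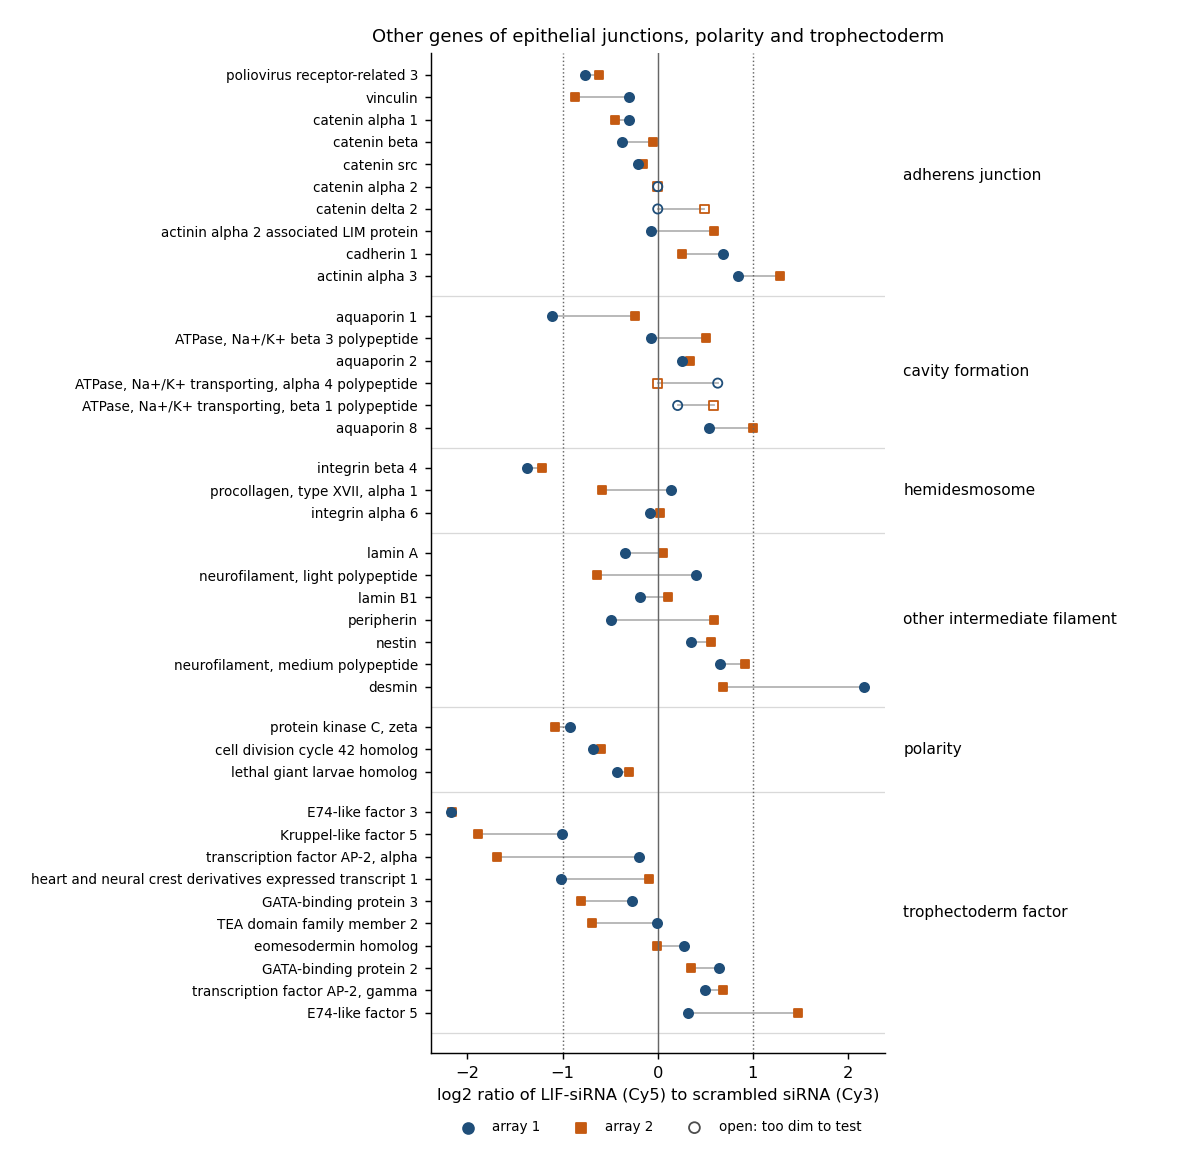
Log2 ratio of LIF-siRNA to scrambled siRNA on array 1 (circles) and array 2 (squares) for 39 spots of other epithelial genes by role, open symbols marking spots too dim to test and dotted lines a ratio of 2 or 0.5. E74-like factor 3, Kruppel-like factor 5 and integrin beta 4 lie beyond the lower line on both arrays, and no spot lies beyond the upper line on both.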

How the data were processed

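Gene expression of LIF-siRNA and scrambled-siRNA morulae was measured on 2 dual-color arrays. The deposited files are output of Agilent Feature Extraction, per the file headers. The deposited intensity columns hold spot and local background brightness, background-subtracted signals and dye-normalized signals. The deposited log10 ratio followed rank-consistent lowess. The deposited p-value of single spots was not used. The deposited log2 table of the series follows the average brightness of both channels (r of 0.998 with it and 0.012 or less with the ratio), so it gave no alternative.

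Ratios were put on the log2 scale. Control spots, outliers and spots above background in neither channel of an array were left out. limma 3.58.1 in R 4.3.3 (intercept only, two-sided) was fitted over 8079 probes with Benjamini-Hochberg adjustment. A run on simulated data drew its errors from limma's own fitted model. It therefore covers the computation, and not dye bias, dim channels or technical replication. Summaries were made with pandas 2.3.3 and numpy 2.4.6 in Python 3.11.15, plots with matplotlib 3.10.9. Only 2 arrays limit the precision.

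Members and lists were chosen with earlier results of these data known. Keratin-associated proteins were split from keratins after the names had been seen. Named genes are members past 2-fold on both arrays, the highest and lowest of each role, and fixed epithelial genes, and further members were named after their values were seen. The values of 4 members are not reported here, though counts and medians include them. Symbols came from RefSeq for 60 members, matched by name, since 0 of their clone accessions were found there. Alternatives were normexp (offset 50) with loess, centring, outliers kept, other dim filters and signal rules, an intensity trend, bright probes alone, a t-test and each array left out. Background-subtracted signals without lowess were added after the data had been seen.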

Additional observations from a re-analysis of the deposited data

How the results depend on the processing

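Direction could change only with normexp and loess, with background-subtracted signals or with an array left out. The other alternatives took the deposited ratios again, or those ratios centred on array medians of 0. They could move a call and not a direction. Values of named genes with a test mostly repeat these ratios. Of them, 205 kept direction and side of the threshold, 38 passed it and 3 reversed. Of the values with an array left out, which had no test, 53 kept direction and 7 reversed. The 2-fold criteria counted 2 higher and 3 lower members. They counted 6 and 7 without the signal threshold, and 6 and 7 with a background flag in its place, with the shares of all probes given above. They counted 1 higher member with normexp and loess, 1 with background-subtracted signals and 0 with the ratio required on each array. Adjusted p under 0.05 was reached by 3 members with normexp and loess (1.96% of all probes), 4 with both channels above background (3.09%), 18 with background-subtracted signals and the same variance for every probe (17.7%), 12 with the trend (14%) and 5 among bright probes (18.7%). Under normexp and loess the medians were 0.044 for members and 0.12 for keratins. Without the dim filter they were 0.059 for members, 0.14 for keratins, -0.049 for annexins and -0.039 for the epithelial list. With background-subtracted signals they were 0.13, 0.49 and 0.049 for members, keratins and annexins. Reversed values were claudin 1 (-0.021) and Sprr2a (0.044) under normexp and loess, and Tjp1 (-0.11) with background-subtracted signals.

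Leaving out an array gave no test, since no residual degree of freedom was left. Higher members by the criteria ranged from 0 to 2 and members lower on the remaining array from 22 to 27, against 17 lower on both. Medians ranged from 0.07 to 0.086 for members, 0.28 to 0.33 for keratins, -0.30 to -0.072 for tight junction members, -0.013 to 0.046 for annexins, 0.20 to 0.90 for S100, -0.49 to -0.31 for epithelial surface and -0.19 to -0.049 for the epithelial list. Named members whose arrays had opposite signs ranged over claudin 1 (-0.098 to 0.19), claudin 4 (-0.56 to 0.23), claudin 6 (-0.038 to 0.57), Jup (-0.19 to 0.086), keratin 19 (-0.14 to 0.22), keratin-associated protein 5-4 (-0.093 to 0.27) and Tjp1 (-0.046 to 0.073). Centring and keeping outliers changed no call.

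The limma fit of within-array ratios already pairs the groups by array. No paired analysis was possible because no block was left to fit beyond it, the slide included. Depth is limited by the dim channel of keratin 13, Gjb6, S100b and Sprr1a.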
